A study of Mus musculus with 81 samples.

Results

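MLT1 elements are the oldest branch of the mammalian apparent LTR retrotransposons (MaLRs), and the report describes the RNA read over their mouse copies in fetal testicular cells. Members were all loci whose species name begins with MLT1 in the 4 deposited tables of mouse endogenous retrovirus (mERV) loci, which gave 83680 of 970384 loci and 58 of 680 species. The fetuses came from the OG2 strain, in which EGFP is driven in germline cells by the Pou5f1 promoter and distal enhancer. F0 dams drank water with 50 nM tributyltin (TBT), a ligand of the nuclear receptors RXR and PPARγ, or with 0.1% DMSO as the vehicle, and testes of E18.5 male fetuses of the F1 or F3 generation were sorted. EGFP-positive germline cells were split by side scatter into P4 and P5, and P6 held the EGFP-negative somatic cells. The RNA libraries numbered 5 DMSO and 7 TBT for F1 P4, 4 and 7 for F1 P5, 5 and 7 for F1 P6, and 4 and 5 for each of F3 P4, P5 and P6. DNA enriched with a methyl-CpG binding domain (MBD) was read in P6 only, in 3 DMSO and 4 TBT libraries of F1 and in 5 and 7 of F3. The study's methods call the MBD samples independently generated. For the RNA libraries the labels do not say whether those of a group are separate animals or litters, so their p-values measure the spread between these libraries. In the F1 germline labels no first part of a library number occurs in both exposure groups, and its meaning is not given. A difference between such parts cannot be told apart from exposure.

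LTR-locus reads per library ran from 2824806 to 6304053 in F1 and from 246520 to 8161548 in F3, where 4 germline libraries held under 2000000 reads (TBT 5 and 9 of P4, DMSO 2 and TBT 5 of P5). The values are TMM-scaled CPM, called units here, and each of the 4 tables was scaled on its own, so tests were made within a table only. Cell type markers were read only through LTR loci inside the marker genes, as the summed value of these loci per library. The sums are not mRNA levels of the genes. By this measure germ cell genes summed to medians of 8917 to 17510 units in the P4 and P5 groups and of 21.1 to 136 in P6. However, 1 library each of F3 P4 and F3 P5 TBT fell to 1568 and 314. Sertoli cell genes summed to medians of 1302 to 2009 in P6 and of 7.13 to 173 in the germline groups, so each sorted population carried the markers of its label.

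MaLRs are relatives of the ERVL retroviruses that carry no genes for their own copying and used the enzymes of other elements. MLT1 copies entered the genome before the orders of placental mammals diverged, and most are now solitary LTRs, broken by substitutions and later insertions. They can no longer move, many lie in introns, and a read over one can come from a promoter within the element or from a host transcript that runs through it. Younger relatives such as MTA and ORR1 are expressed from their own LTRs in mouse oocytes and early embryos.

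The sequences below are the copies on which the results turn, read from the plus strand of GRCm38 with CpG sites in capitals. The first pair lies in an intron of Dock11, an activator of the small GTPase Cdc42, and shows a long and a short remnant that were given the same reads.
MLT1C, Dock11 intron, chrX:36057653-36057938: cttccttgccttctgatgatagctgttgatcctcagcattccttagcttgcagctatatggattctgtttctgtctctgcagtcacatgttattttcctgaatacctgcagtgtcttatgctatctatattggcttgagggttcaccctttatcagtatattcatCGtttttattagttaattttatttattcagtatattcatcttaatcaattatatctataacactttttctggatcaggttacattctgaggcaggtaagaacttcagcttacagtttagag
MLT1C, Dock11 intron, chrX:36058153-36058181: attttgggaaatacaattcagttcataac
The next pair holds loci called between TBT and DMSO in F3 P6 cells, in introns of Lama2, which encodes a laminin chain of the basement membrane, and of Akr1e1, an aldo-keto reductase.
MLT1A, Lama2 intron, chr10:27136252-27136533: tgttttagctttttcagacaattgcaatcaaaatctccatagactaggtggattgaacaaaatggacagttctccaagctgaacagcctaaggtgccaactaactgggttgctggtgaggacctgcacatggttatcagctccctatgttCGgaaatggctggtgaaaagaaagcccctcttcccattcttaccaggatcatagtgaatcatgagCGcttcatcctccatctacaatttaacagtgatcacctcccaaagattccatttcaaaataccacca
MLT1J2, Akr1e1 intron, chr13:4594756-4594858: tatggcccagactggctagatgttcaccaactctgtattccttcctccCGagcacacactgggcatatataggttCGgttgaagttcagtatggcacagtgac
These 4 copies lie outside annotated genes. The MLT1F1 and MLT1A0 copies were named as higher in P5 of F1 and of F3, the MLT1D copy was the most read per kb outside genes in F1 P4, and the MLT1C copy was the one outside genes named as lower in F1 P5.
MLT1F1, chr3:130820636-130820776: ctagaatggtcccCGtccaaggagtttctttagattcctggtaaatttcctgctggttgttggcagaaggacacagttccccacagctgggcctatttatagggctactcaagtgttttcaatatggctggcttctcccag
MLT1A0, chr12:5678821-5679060: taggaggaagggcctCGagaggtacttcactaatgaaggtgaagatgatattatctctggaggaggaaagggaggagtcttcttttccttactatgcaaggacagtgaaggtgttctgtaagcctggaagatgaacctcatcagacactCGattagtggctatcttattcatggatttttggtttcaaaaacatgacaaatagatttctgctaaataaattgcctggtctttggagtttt
MLT1D, chr1:76219146-76219342: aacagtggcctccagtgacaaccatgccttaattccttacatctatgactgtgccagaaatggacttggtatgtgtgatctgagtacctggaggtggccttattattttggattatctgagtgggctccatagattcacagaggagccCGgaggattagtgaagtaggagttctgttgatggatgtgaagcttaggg
MLT1C, chr19:58784058-58784221: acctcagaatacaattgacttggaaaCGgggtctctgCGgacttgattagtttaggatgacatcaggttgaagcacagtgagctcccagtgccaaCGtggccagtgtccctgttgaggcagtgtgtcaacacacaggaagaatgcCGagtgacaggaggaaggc
The last is the copy in an intron of Ddx4, the germ cell RNA helicase, and is shown as a strongly read copy inside a germline gene.
MLT1F1, Ddx4 intron, chr13:112618359-112618471: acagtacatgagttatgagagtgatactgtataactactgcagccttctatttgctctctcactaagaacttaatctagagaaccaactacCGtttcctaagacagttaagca
Between them the 9 copies held 0 to 4 CpG sites.

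MLT1 copies were short and poor in CpG. Their mean length was 202.5 bp (median 172) against 328.6 bp (median 261) over all LTR loci, and together they covered 16945 kb. They held 0.673 CpG sites per 100 bp against 0.876 over all LTR loci, and 37.8% of copies had no CpG against 32.8%. By the GENCODE vM21 annotation, 58.8% of MLT1 copies lay outside genes, 38.8% in introns and 2.38% in exons, against 64.5%, 33.0% and 2.48% of all LTR loci. The copies were thus not mostly intronic by number. No read fell on 29757 copies (35.6%) in any of the 62 libraries, against 34.3% of all LTR loci.

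The MLT1A subfamily made up 24361 of the copies, and 9315 were MLT1B, 8359 MLT1D, 7787 MLT1C, 5466 MLT1F, 5187 MLT1J, 5104 MLT1E and 4357 MLT1H. Internal parts, marked -int, numbered 3185 with 0.593 CpG per 100 bp. The smallest letter group, MLT1M, with 212 copies, was the richest in CpG (0.904 per 100 bp) and had the lowest share of unread copies (27.4%). MLT1A took 2.11% of the LTR signal in F1 germline cells, 2.47% in F1 P6, 1.84% in F3 germline cells and 2.53% in F3 P6. MLT1B followed with 0.880%, 1.07%, 0.847% and 1.06% in the same order.

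MLT1 loci took a larger share of the LTR signal in somatic than in germline cells. In DMSO libraries the share was 7.42% ± 0.0547 (SD, n = 5) in F1 P4, 7.50% ± 0.0298 (n = 4) in F1 P5 and 8.67% ± 0.0693 (n = 5) in F1 P6. In F3 it was 6.82% ± 0.148, 6.59% ± 0.754 and 8.71% ± 0.0600 (n = 4 each). The lowest P6 DMSO library was at 8.62%, above the highest germline DMSO library of F1 (7.53%) and of F3 (7.43%), but the tables were scaled separately and this difference was not tested. TBT libraries took 7.36% ± 0.125 in F1 P4 and 7.41% ± 0.234 in F1 P5 (n = 7 each), and 8.57% ± 0.145 in F1 P6 (n = 7). In the F3 germline they took 6.72% ± 0.606 at P4 and 6.75% ± 0.828 at P5, while F3 somatic libraries stood at 8.75% ± 0.0788 (n = 5 each). TBT and DMSO ranges overlapped in all 6 populations. MTA loci, younger MaLRs, took 1.99% in P6 DMSO libraries of both generations and 1.93% to 2.06% in the germline DMSO groups, so that their shares lay closer together than those of MLT1. Other old LTR groups also took more in P6. Ancient LTR, MLT2, MER and MamGyp loci together took 5.16%, 5.14% and 5.68% in F1 P4, P5 and P6 DMSO libraries and 5.11%, 4.80% and 5.74% in those of F3. ORR1D and ORR1E loci took 7.12%, 7.06% and 7.29% in F1 and 6.81%, 6.39% and 7.32% in F3.

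Most MLT1 signal came from introns although most copies lay outside genes. Introns held between 81.6% and 92.3% of the MLT1 value in the 12 group means. The part outside genes was 1.61% in F1 P4 DMSO, 3.29% in F1 P5 DMSO, 0.408% in F1 P6 DMSO, 2.42% in F3 P4 DMSO, 10.7% in F3 P5 DMSO and 0.350% in F3 P6 DMSO. In each of these groups it was below that of all LTR loci, which was 2.27%, 5.04%, 1.32%, 3.90%, 16.6% and 1.33%. With location set by protein-coding genes only, the MLT1 part outside genes was 2.46% in F1 P4 DMSO, 3.72% in F3 P4 DMSO, and 1.07% and 1.02% in P6 DMSO of F1 and F3. A library of F1 held a read on 11942 to 24269 MLT1 loci and a library of F3 on 1004 to 24615, the lowest being the library with 246520 reads.

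**Figure D1:**
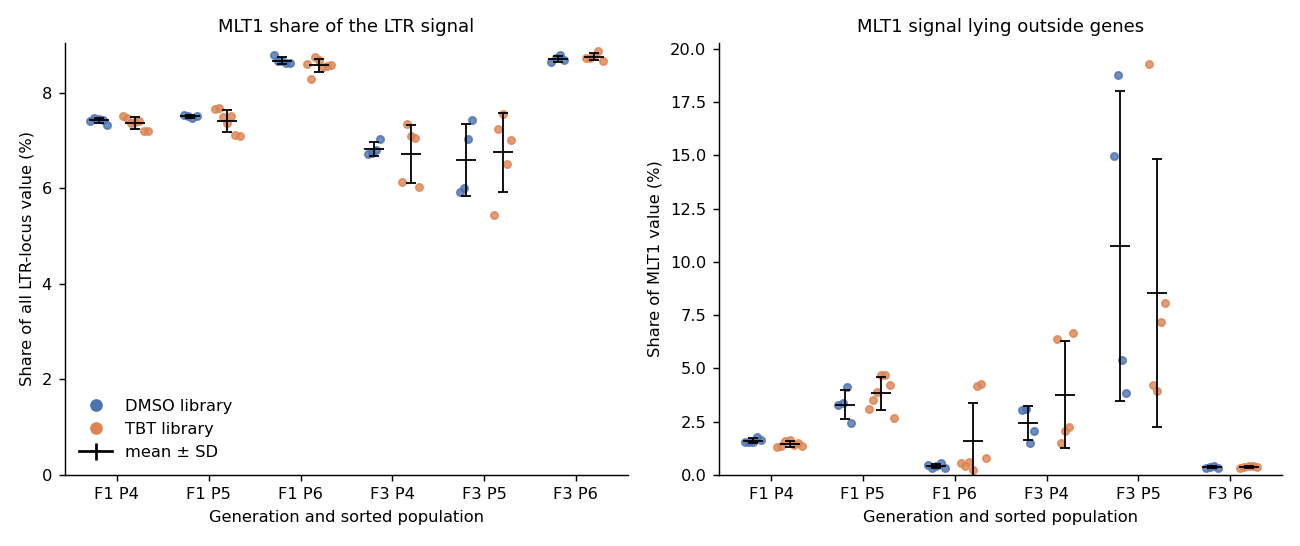
MLT1 share of the value of all LTR loci (left, %) and share of the MLT1 value that lay outside annotated genes (right, %), for each generation and sorted population; points are libraries (DMSO blue, TBT orange) and black marks are means ± SD. P6 libraries lie near 8.7% on the left and mostly under 1% on the right, where F1 P6 TBT libraries 7 and 8 reach 4.19% and 4.25%.

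The copies with the highest values per kb lay inside genes, and these differed between germline and somatic cells. Among copies of at least 100 bp, values are given per kb. The reads of intronic copies hardly varied with length, with Spearman correlations from -0.043 in F1 germline cells to -0.011 in F3 P6. Division by length therefore places short intronic copies higher, and the ranks are not ranks by reads. In F1 P4 the first was an MLT1A0 copy in an intron of Eif3b, a subunit of a translation initiation factor, at 1814 ± 378 units per kb (SD, n = 12). An MLT1J copy in an intron of Swi5, a DNA recombination repair gene, was next at 1674 ± 427 units per kb. Copies in introns of Kdm1b, a histone demethylase, and Sem1, a proteasome subunit, followed, and the fifth was the MLT1F1 copy in Ddx4 printed above, at 1113 ± 87.9 units per kb. Eif3b (1163 ± 319 units per kb) and Swi5 (1134 ± 318) also led in F1 P5 (n = 11). Sem1 led in F3 P4 at 4447 ± 2908 units per kb and in F3 P5 at 2271 ± 1731 (n = 9 each), where the libraries spread from 1457 to 10277 and from 664 to 5469. In P6 cells the leading pair lay in untranslated exons, an MLT1H-int copy in 9530068E07Rik and an MLT1A1 copy in Scd2, a fatty acid desaturase. They stood at 2429 ± 306 and 2279 ± 266 units per kb in F1 P6 (n = 12), and at 2162 ± 155 and 2590 ± 242 in F3 P6 (n = 9). A copy in an intron of Serpine2, a secreted protease inhibitor, followed in both (1630 ± 230 and 1304 ± 199 units per kb).

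Copies outside genes were read at far lower levels per kb. In F1 P4 the highest was the MLT1D copy on chr1 printed above, with 74.5 ± 8.66 units per kb and 59.1 to 83.7 over 12 libraries. It was at 62.4 ± 16.5 units per kb in F1 P5 and had no read in any P6 library, and its nearest annotated gene, the pseudogene Gm29068, lay 108566 bp away. The MLT1F1 copy on chr3 led in F1 P5 (68.0 ± 34.0 units per kb) and in F3 P5 (322 ± 265). In P6 the first was an MLT1A copy at chr5:43619038-43619171, 235 bp from C1qtnf7, with 105 ± 24.4 units per kb in F1 and 82.8 ± 16.6 in F3. An MLT1K copy on chr16 (71.9 ± 13.7 and 80.5 ± 11.5 units per kb) and an MLT1C copy 687 bp from Col6a2, a collagen gene (41.8 ± 11.2 and 43.6 ± 8.95), followed in both generations.

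Many intronic MLT1 copies carried exactly the reads of the next LTR locus. In the Dock11 pair, both copies had 9.55 to 16.7 units (median 12.7) in the 5 DMSO libraries and 15.9 to 30.1 (median 21.5) in the 7 TBT libraries of F1 P4, with the same value in every library although one copy is 286 bp and the other 29 bp long. Over copies with a mean of 5 reads or more per library and another LTR locus in the same exon-free stretch of a gene, 3717 of 7530 (49.4%) had the reads of a neighbour in all 23 libraries of F1 germline cells. The counts were 3970 of 6616 (60.0%) in 12 libraries of F1 P6, 3313 of 6095 (54.4%) in 18 of F3 germline cells and 4436 of 8113 (54.7%) in 9 of F3 P6. Over all intronic LTR loci the same measure gave 43.9%, 55.4%, 46.7% and 50.1%.

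Copies elsewhere seldom shared their reads. In exons 17 of 193 (8.81%), 25 of 153 (16.3%), 25 of 193 (13.0%) and 21 of 201 (10.4%) did so in the same order of tables. Outside genes 1 of 119, 1 of 7, 3 of 236 and 1 of 17 did. Pairs of intronic MLT1 copies with equal reads lay a median of 995 to 1294 bp apart in the 4 tables. The longer was a median of 1.72 to 1.75 times the length of the shorter. Of 1437, 1502, 1259 and 1748 such pairs, 7, 4, 6 and 4 shared a run of 25 bases, so equal sequence was rare among them. Pairs of an MLT1 copy with another LTR species were not compared by sequence.

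The reads of an intronic copy hardly varied with its length. In F1 germline cells the median was 16.5 reads per library for copies under 50 bp, 15.7 for copies from 50 bp to under 300 bp and 14.3 for longer ones. In F3 P6 cells it was 24.1, 24.6 and 23.9. Across intronic copies the Spearman correlation of length and reads was -0.043 in F1 germline cells, -0.013 in F1 P6, -0.027 in F3 germline cells and -0.011 in F3 P6, as a description over copies that share libraries and genes. In stretches with 3 or more LTR loci, 27108 MLT1 copies in all, the reads above those of the lowest locus of the stretch were a median of 1.29%, 0.801%, 4.26% and 1.20% of the MLT1 reads over the libraries of the 4 tables. The share reached 31.7% in 1 F3 germline library, and 4.56%, 4.61% and 1.53% at most in the F1 germline, F1 P6 and F3 P6 tables. How pairs spanning an intron were counted is not given in the sources used here, and the value of a copy with its neighbour's reads cannot be told apart from that of its stretch.

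**Figure D2:**
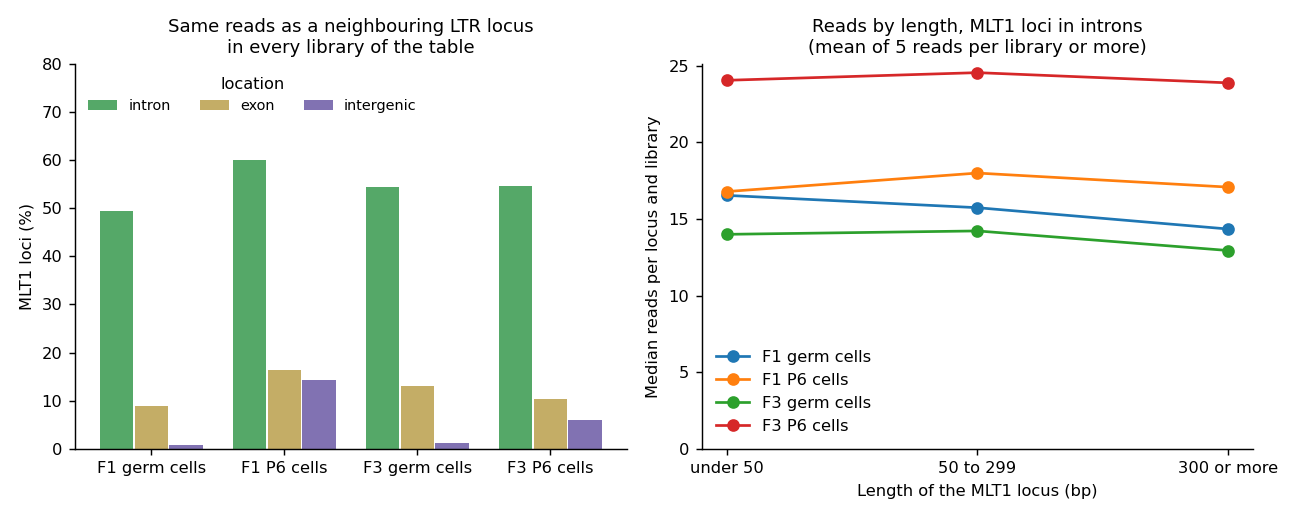
Left, percentage of MLT1 copies with a neighbouring LTR locus whose reads were the same in every library of the table, by location (intron, exon, intergenic); right, median reads per copy and library of intronic MLT1 copies by length class in bp. Between 49.4% and 60.0% of intronic copies shared the reads of a neighbour, and the lines on the right are nearly flat over length.

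TBT exposure of the F0 dams was compared with DMSO within each population by limma, with Benjamini-Hochberg false discovery rates (FDR) over all LTR loci tested. The value of 1 read ran from 0.129 to 0.957 units over the libraries. Its median over the compared libraries is called the read value here. It was added to each value before log2, and loci with a mean of 5 read values or more were tested. Other pseudocounts and filters below are also in read values. In F1 P4 no MLT1 locus of 8450 passed FDR 0.05, and neither did any of 91621 LTR loci (0.0%). An unadjusted p under 0.05 was reached by 575 MLT1 loci and 6496 LTR loci in all, and edgeR's likelihood ratio test on the reads called 8 MLT1 loci lower, beside 11 LTR loci higher and 75 lower. The median log2 difference was 0.04 over MLT1 loci and 0.04 over all. The Dock11 pair had the lowest p among loci higher in TBT, with means of 12.6 ± 2.95 and 20.96 ± 4.99 units and a log2 difference of 0.72 (SE 0.18) at a limma FDR of 0.58, and 1 DMSO library lay within the TBT range. Among loci lower in TBT it was a set of copies with equal reads in introns of Igfbp7, an IGF-binding secreted protein, at 7.09 to 17.7 units (median 14.7) in DMSO and 5.37 to 8.07 (median 6.65) in TBT. Their log2 difference was -0.90 (SE 0.22), also at a limma FDR of 0.58.

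In F1 P5 none of 10812 MLT1 loci passed in either direction, beside 13 of 122303 LTR loci, all higher (0.0106%), while 613 MLT1 loci and 8421 LTR loci had an unadjusted p under 0.05. The likelihood ratio test called 3 MLT1 loci higher and 3 lower, beside 308 and 80 LTR loci. Medians were 0.01 over MLT1 loci and 0.03 over all. The 385 MLT1 loci outside genes had a median log2 difference of 0.20 against 0.37 over all LTR loci outside genes. An MLT1B copy at chr16:9279351-9279720, 117017 bp from the nearest gene, had 0 to 2.63 units (median 0.317) in DMSO and 1.02 to 7.09 (median 3.53) in TBT, so the groups overlapped. Its log2 difference was 2.70 (SE 0.58) at a limma FDR of 0.17. An MLT1J copy on chr1, 2781 bp from Gm32391, had 0.841 to 5.13 units against 4.13 to 6.86 in TBT (1.53, SE 0.36, limma FDR 0.21). In the other direction, a copy in an intron of Mgst1, a microsomal glutathione transferase, had 6.56 to 14.1 units in DMSO and 3.49 to 6.08 in TBT (-1.01, SE 0.24, limma FDR 0.24), with no overlap. A copy in an untranslated exon of Vnn1, a pantetheinase, had a log2 difference of -1.0 at a limma FDR of 0.30.

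In F1 P6 none of 8129 MLT1 loci passed, beside 3 of 88037 LTR loci, all higher (0.00341%), and 321 MLT1 loci and 3244 LTR loci had an unadjusted p under 0.05. Medians were -0.04 over MLT1 loci and -0.04 over all. TBT libraries 7 and 8 had 4.19% and 4.25% of their MLT1 value outside genes where the other 5 had a median of 0.570%, and without them 0 MLT1 loci passed and 431 had an unadjusted p under 0.05, beside 4709 LTR loci. The loci of lowest p lay in introns of Faf2, Dusp10 and Ctnna2 and in an exon of Tango6, each at a limma FDR of 1.0. The Faf2 copy had 2.29 to 4.68 units in DMSO and 5.07 to 8.48 in TBT.

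In the F3 germline cells no LTR locus passed in P4 (0.0% of 86412) or in P5 (0.0% of 105423), hence none of 7468 and 8344 MLT1 loci. An unadjusted p under 0.05 was reached by 97 and 41 MLT1 loci, beside 1424 and 1066 LTR loci. By edgeR's likelihood ratio test 28 MLT1 loci were higher and 181 lower in F3 P5, beside 0.645% and 2.51% of LTR loci, while its quasi-likelihood test called none there (447 MLT1 and 7552 LTR loci with an unadjusted p under 0.05). The median log2 difference was -0.73 over MLT1 loci and -0.69 over all in P4, and 0.26 and 0.15 in P5. Without the 4 libraries of under 2000000 reads the MLT1 medians were 0.40 in P4 and 0.48 in P5, again with 0 loci past FDR 0.05, so the sign in P4 rested on the shallow libraries. The P5 median was no firmer, at -0.20 without DMSO library 2 and 0.95 without TBT library 5. The Swi5 copy had 337 to 589 units in F3 P4 DMSO and 102 to 279 in TBT (-1.28, SE 0.33, limma FDR 0.87), with no overlap. A copy in an exon of Tug1, a long noncoding RNA, had 0 to 6.07 units in DMSO and 8.62 to 51.0 in TBT (3.49, SE 1.12, limma FDR 0.87). In P5 the loci of lowest p had limma FDRs of 1.0. One of them, an MLT1B copy in an intron of Gm28078, had 0 in 3 of 4 DMSO libraries and 2.40 to 72.7 units in TBT, the highest value being in the library with 246520 reads.

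F3 P6 cells gave the 3 MLT1 loci that passed between TBT and DMSO, of 9765 tested. Of all 104835 LTR loci 21 were higher (0.02%) and 15 lower (0.0143%), 0.0343% together. The MLT1 loci, 2 higher and 1 lower, were 0.0205% and 0.0102% of those tested, close to the LTR background. The MLT1A copy in Lama2 had 14.3, 16.4, 8.19 and 15.8 units in the 4 DMSO libraries and 23.3, 22.6, 27.5, 23.1 and 32.1 in the 5 TBT libraries. All TBT libraries lay above all DMSO libraries, and the means were 13.7 ± 3.76 and 25.7 ± 4.04 units. The log2 difference was 0.94 (SE 0.17) at a limma FDR of 0.042. The MLT1A0 copy at chr10:27136552-27136852 next to it differed from it by at most 2 reads in any library and had the same log2 difference, so the 2 calls are 1 measurement. Lama2 held 133 LTR loci, of which 131 were tested and 9 passed, and its 16 MLT1 copies were all tested.

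The Lama2 call was close to the threshold. It was lost with a pseudocount of 0.25 (limma FDR 0.075), with median-ratio scaling (0.060), and when any of DMSO libraries 1 and 3 or TBT libraries 5 to 9 was left out (0.067 to 0.20). In F1 P6 the same copy had 6.58 to 14.8 units in DMSO and 0.771 to 20.7 in TBT, with a log2 difference of -0.27 at a limma FDR of 1.0.

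The MLT1J2 copy in Akr1e1 was lower in TBT. It had 9.72, 13.5, 9.43 and 16.2 units in F3 P6 DMSO and 2.21, 3.88, 4.92, 3.09 and 4.97 in TBT, with no overlap. The means were 12.2 ± 3.22 and 3.81 ± 1.19 units, and the log2 difference was -1.65 (SE 0.24) at a limma FDR of 0.0057. With any 1 library left out it stayed between -1.76 and -1.48 and past the threshold. Akr1e1 held 8 LTR loci, of which 7 were tested and all 7 passed, and this was its 1 MLT1 copy. In F1 P6 the copy had 12.7 to 18.3 units in DMSO and 8.42 to 33.9 in TBT (0.14, limma FDR 1.0), so the lower level was not seen there. The difference between the generations was not tested, since their tables were scaled separately.

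The signal of LTR loci inside germ cell genes varied among the F3 P6 libraries. Over the 19 genes it summed to 14.9 to 271 units (median 136) in DMSO and to 17.4 to 27.5 (median 21.1) in TBT. The groups overlapped, and the high sums lay in some DMSO libraries. The readout through LTR loci was 0 for Tex101 and Dmrtb1 in both groups. The Akr1e1 copy itself had 9.78 to 25.7 units (median 21.1) in F3 P4 DMSO libraries, in which the germ cell genes summed to a median of 12930. Leydig cell genes summed to 40.5 to 73.2 units in F3 P6 DMSO and to 29.4 to 39.1 in TBT, with no overlap. The part of either in the Akr1e1 and Lama2 results was not tested. In bulk libraries fewer cells of a type and less RNA per cell cannot be told apart.

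**Figure D3:**
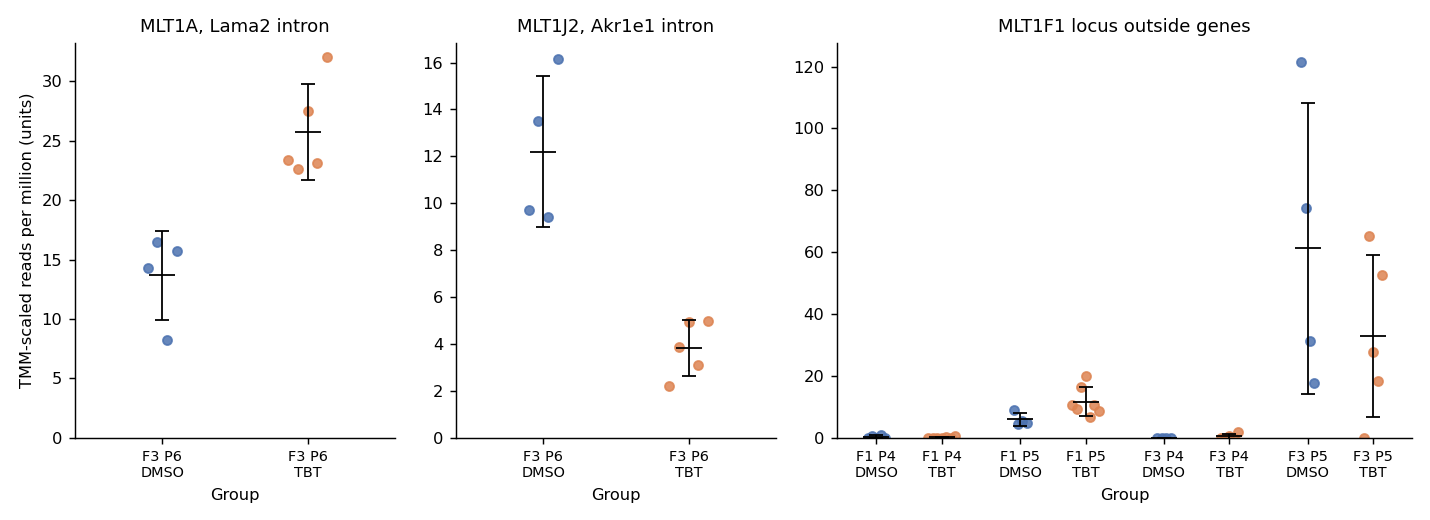
Values in TMM-scaled CPM for 3 MLT1 copies; points are libraries (DMSO blue, TBT orange) and black marks are means ± SD, with separate vertical axes that start at 0. The Lama2 copy lies at 22.6 or more in every F3 P6 TBT library, the Akr1e1 copy at 4.97 or less, and the MLT1F1 copy outside genes is near 0 in P4 and higher in P5 of both generations.

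P5 was compared with P4 within each generation, with exposure as a covariate. In F1, 1447 of 9149 MLT1 loci were higher in P5 (15.8%) and 2003 lower (21.9%). Of all 101401 LTR loci 39.3% passed, 17.6% higher and 21.6% lower, so MLT1 stood near the background. The median log2 difference was -0.14 over MLT1 loci and -0.11 over all. With every library set to the same total the split turned to 1740 higher and 1012 lower, and with median-ratio scaling to 1719 and 1120, beside 21021 and 11628 and then 20702 and 12692 of all LTR loci, as the median over all LTR loci moved to 0.03 and 0.01. Which direction held more loci thus depended on the scaling. When the lowest LTR locus of an intronic stretch was subtracted, an alternative added after the data were seen, 66 intronic MLT1 loci remained to be tested, of which 21 were higher and 3 lower, beside 49.6% and 2.79% of the 1364 LTR loci tested that way.

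The calls differed by location. In introns 1309 of 8437 were higher (15.5% against 16.1% of LTR loci) and 1902 lower (22.5% against 22.8%). The higher loci lay in 584 genes and the lower in 829, and they carried 1123 and 1595 distinct sets of values. In exons 92 of 541 were higher (17.0% against 21% of LTR loci, 1365 of 6510) and 93 lower (17.2% against 18.7%). Outside genes 46 of 171 were higher (26.9%) and 8 lower (4.68%), where 42.5% and 3.18% of LTR loci were. The median outside genes was 0.17 over MLT1 loci and 0.76 over all LTR loci there.

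In F3, 28 of 7973 MLT1 loci were higher in P5 (0.351%, against 1.0% of 98076 LTR loci) and 0 lower (0.0112% of LTR loci), and 564 had an unadjusted p under 0.05, beside 10166 LTR loci. By edgeR's quasi-likelihood test on the reads 198 were higher and 5 lower, beside 4.98% and 0.0724% of LTR loci. With the library number as a block 65 were higher and 0 lower, beside 1.84% and 0.0877%. Without the 4 libraries of under 2000000 reads 180 were higher and 67 lower, beside 3.56% and 0.837%. Outside genes 14 of 512 were higher (2.73% against 4.47%), in introns 13 of 6915 (0.188% against 0.401%) and in exons 1 of 546 (0.183% against 1.05%). Of LTR loci in introns and exons 0.0128% and 0.0147% were lower. The median outside genes was 0.73 over MLT1 loci and 0.98 over all. The count moved to 159 without TBT library 5 of P5, the one with 246520 reads, and to 59 without DMSO library 2 of P5, while that of all LTR loci moved from 983 to 3262 and 1429. It was 10 to 18 without P5 TBT 9, P4 TBT 7 or any of the 4 P4 DMSO libraries, beside 404 to 537 LTR loci. With DMSO libraries only it was 0.

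Of the 28 loci higher in F3, 12 were tested in F1 and all 12 were higher there. Among 7129 MLT1 loci tested in both generations 14.4% were higher in F1. Conversely, 12 of the 1025 loci higher in F1 and tested in F3 passed there (1.17%). Over all LTR loci, 489 of 505 loci higher in F3 were higher in F1, beside 16.7% of those tested in both, and 489 of 13636 loci higher in F1 passed in F3 (3.59%).

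**Figure D4:**
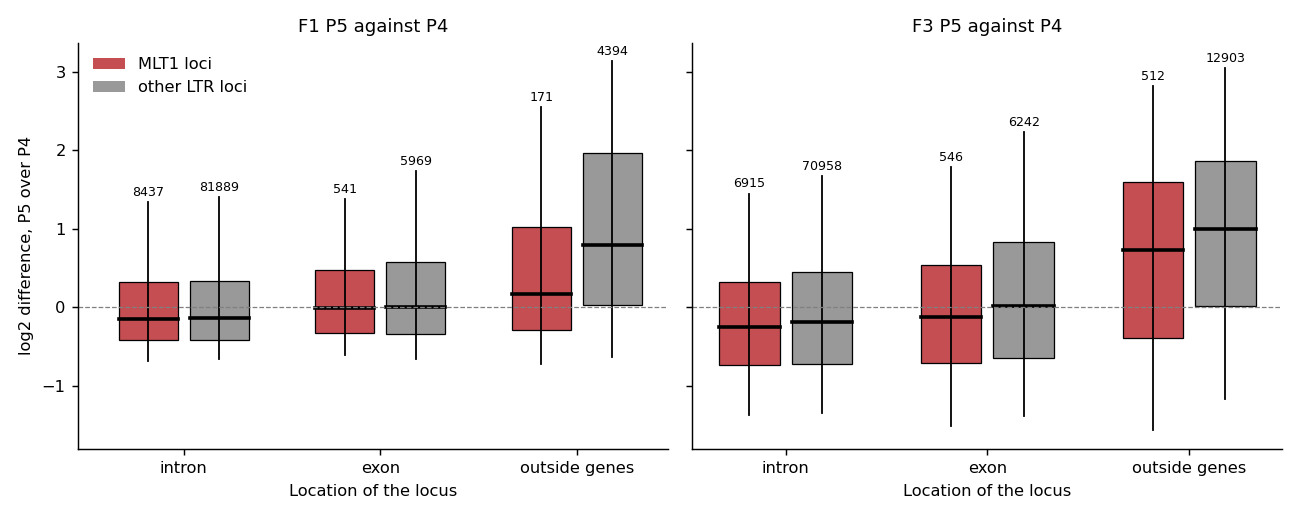
Log2 difference of P5 over P4 for MLT1 loci (red) and other LTR loci (grey) by location, in F1 (left) and F3 (right); bars span the 25th to 75th percentile, thick lines are medians, thin lines the 5th to 95th percentile, and the numbers are loci tested. Loci outside genes lie higher than intronic ones in both generations, and the MLT1 median there is lower than that of other LTR loci.

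The MLT1F1 copy at chr3:130820636-130820776, 17679 bp from 2010110G14Rik, had the largest difference in F1. It had 0 to 0.985 units in F1 P4 DMSO, 0 to 0.512 in P4 TBT, 4.43 to 9.09 (median 5.11) in P5 DMSO and 6.68 to 19.96 (median 10.4) in P5 TBT. Every P5 library lay above every P4 library. The log2 difference was 4.70 (SE 0.33) at a limma FDR of 1.96e-13. In F3 it was 0 in all P4 DMSO libraries and 0 to 1.86 units in P4 TBT, against 17.5 to 122 (median 52.8) in P5 DMSO and 0 to 65.3 (median 27.7) in P5 TBT, so 1 P5 library had no read. The log2 difference was 5.99 (SE 0.94) at a limma FDR of 0.00079.

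Other copies higher in F1 P5 lay in an intron of Sugct, a mitochondrial CoA transferase (3.74), of Gm7972 (3.49) and of Col11a1, a collagen chain (3.47), and outside genes 1798 bp from Fbxw11, a ubiquitin ligase subunit (3.30), each as a log2 difference. These were near 0 in P4, with medians of 0 to 0.246 units, and at medians of 2.45 to 6.51 in P5. All P5 libraries of the Sugct copy lay above its P4 libraries, while the other 3 overlapped. The MLT1J copy on chr1 near Gm32391 was also higher in P5, with 2.95 in F1 (limma FDR 4.6e-07) and 4.65 in F3 (limma FDR 0.0020).

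Copies lower in F1 P5 had smaller differences. Among them 3 MLT1C remnants in an intron of Calb2, the calcium-binding protein calretinin, had equal reads, with 0.774 to 2.40 units in P4 DMSO, 1.19 to 3.64 in P4 TBT, 0.717 to 1.17 in P5 DMSO and 0 to 1.06 in P5 TBT. Their log2 difference was -1.48 (SE 0.35, limma FDR 0.00098), and -0.64 (limma FDR 0.44) with DMSO libraries only. The MLT1C copy on chr19, 1582 bp from 1700019N19Rik, had 5.67 to 10.4 and 3.64 to 7.56 units in P4 DMSO and TBT, and 0.700 to 4.04 and 1.46 to 3.81 in P5 (-1.19, SE 0.22, limma FDR 6.2e-05). A copy in Mb21d2 fell by 1.16 on the log2 scale, and with DMSO libraries only its limma FDR was 0.070.

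In F3 the MLT1A0 copy at chr12:5678821-5679060, 87289 bp from the nearest gene, was read in P5 alone but for 1 library. It had 0 in all 4 P4 DMSO libraries and in 4 of 5 P4 TBT libraries, where TBT 6 had 1.49 units, against 3.46 to 81.9 (median 6.56) in P5 DMSO and 6.63 to 54.5 (median 28.8) in P5 TBT. Its log2 difference was 5.53 (SE 0.79, limma FDR 0.00024). Copies in an intron of Cnbd1 (5.24), in an untranslated exon of Zfp719, a zinc finger gene (4.12), in introns of Gphn, the synaptic anchor gephyrin (3.98), and of Kidins220 (3.55) were also higher. No MLT1 copy was lower at FDR 0.05, and the Psmb2 copy, in a proteasome subunit gene, had 390 to 672 units in P4 TBT and 694 to 1140 in P4 DMSO against 22.96 to 1004 and 183 to 460 in P5 (-1.30, limma FDR 0.13).

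By subfamily the F1 counts ran in parallel, near the 17.6% higher and 21.6% lower of all LTR loci for the largest. MLT1A had 434 higher and 540 lower of 2640 loci tested, MLT1B 164 and 235 of 1047, MLT1D 133 and 213 of 896, MLT1C 142 and 164 of 817, and MLT1F 103 and 183 of 706. The median was between -0.29 and -0.0028 in all 16 groups, with the smallest, MLT1M, at 7 higher and 8 lower of 29. In F3 the 28 loci were spread over 13 groups with at most 5 in one.

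No species total passed between TBT and DMSO. None of the 54 or 55 MLT1 species tested in a comparison passed, and none of 660 to 668 LTR species did (0.0% each). An unadjusted limma p under 0.05 was reached by 0 to 5 MLT1 species, beside 0 to 62 of all LTR species. With copies outside genes alone none passed either, but in F1 P6 the MLT1 median moved from 0.014 to 1.36 (1.22 over all LTR species). There 39 of 40 MLT1 species were higher in TBT, and 6 had an unadjusted p under 0.05, beside 86 of 537 LTR species. TBT libraries 7 and 8 held the most value outside genes there, and their part in this median was not tested. For F1 P5 against P4, 8 of 55 MLT1 species were higher and 33 lower, beside 24.1% and 43.4% of 664 species. With every library set to the same total this split turned to 19 higher and 10 lower, beside 48.2% and 18.7%. MLT1A0 had 9198 ± 367 units in P4 (n = 12) and 8402 ± 357 in P5 (n = 11), a log2 difference of -0.13 (SE 0.026, limma FDR 9.5e-05), and 0.024 at the same total. MLT1B had 9211 ± 401 and 8487 ± 433 units (-0.12). The larger differences were in internal parts. MLT1F2-int had -0.52 (103 ± 10 units in P4, 72 ± 7 in P5) and MLT1B-int -0.43, while MLT1G1-int had 0.49 and MLT1A1-int 0.48. In F3 none of 54 passed, beside 2.87% and 0.151% of 662, and 2 had an unadjusted p under 0.05, beside 75 of the 662.

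The direction of the species totals turned when only copies outside genes were summed. All 43 MLT1 species tested in F1 were then higher in P5, beside 93.9% of 589 species, with a median of 1.19 against 1.34 over all. In F3 29 of 46 were higher beside 59.5% of 603, with medians of 1.23 and 1.40. MLT1A0 moved from -0.13 to 1.28 in F1 and from -0.25 to 1.55 in F3. The shift was thus shared with the other LTR species, and that of MLT1 was not the larger.

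MLT1 copies were few in genes of retroelement silencing and in those of RXR and receptors that pair with it. None of the copies tested passed between TBT and DMSO in any population. In P6 of either generation 0 copies in piRNA pathway genes and 1 in a receptor gene were tested. For F1 P5 against P4, where 17.6% of LTR loci were higher and 21.6% lower (16.1% and 22.8% in introns), genes of retrovirus silencing (20 in the list) held 7 tested copies in Atrx, Dnmt1, Dnmt3b and Morc1, of which 1 in Atrx, a chromatin remodeller, was higher and 4 in Morc1, a germline silencing ATPase, were lower. Genes of the piRNA pathway (19), which guides the silencing of transposons in male germ cells, held 11 copies. Of these 10 were lower, in Ddx4, Piwil2, Piwil4, Tdrd12 and Tdrd9, and 1 in Mov10l1, an RNA helicase that binds piRNA precursors, was higher, against the same background. The median was -0.53 over the 11 copies, which carried 10 distinct sets of values, and -0.11 over all LTR loci. Genes of RXR, PPAR, LXR and RAR receptors (11) held 8 copies in Ppara, Rarb, Rxra and Rxrg, with 1 lower, in Rxrg, a retinoid X receptor. In F3 none of these copies passed, beside 1.0% and 0.0112% of LTR loci.

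LTR loci inside Sertoli cell genes summed higher in P5 than in P4 in F1 DMSO, at 61.2 to 334 units against 6.67 to 116. They did so in F1 TBT too, at 57.7 to 111 against 5.63 to 36.1. The other cell types were read in the same way. Peritubular cell genes had medians of 22.8 to 37.4 units in the F1 germline groups and of 309 to 333 in F1 P6. Endothelial cell genes had medians of 69.4 to 119 in the F1 germline groups, macrophage genes of 14.1 to 30.6 and red blood cell genes of 18.4 to 24.3. In F3 germline groups the medians were 47.1 to 122 for endothelium, 12.3 to 31.2 for macrophages and 19.3 to 38.3 for red blood cells. The part of these cells in the P5 against P4 results was not tested.

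MBD reads were counted by the authors in windows of 100 bp. In F1 P6 1413 of 154773 windows overlapped an MLT1 copy and in F3 P6 1583 of 164382. They held a mean of 0.72 and 0.71 CpG sites, against 0.85 and 0.87 in windows on other LTR loci. In F1, 303 MLT1 windows of 34559 were tested on the counts with edgeR, and none was higher or lower at FDR 0.05, beside 2 higher (0.00579%) and 9 lower (0.026%) of all windows, 0.0318% together. In F3, 470 of 47563 were tested and none passed (0.0% of all windows). An unadjusted p under 0.05 was reached by 14 and 25 MLT1 windows, beside 1730 and 2469 of all windows. DESeq2 called 0 in each, with 6 and 3 MLT1 windows and 568 and 915 of all windows under an unadjusted p of 0.05.

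The window of lowest p among those higher in F1 TBT was chr15:41305901-41306000, 1 CpG and 5 bp of an MLT1A0 copy, with 8.69 to 11.6 CPM in DMSO and 19.7 to 25.7 in TBT. It rested on 4 to 5 and 12 to 23 reads, and its log2 difference was 1.18 at an edgeR FDR of 0.94. Neighbouring windows on an MLT1D copy in an intron of Lclat1, a cardiolipin acyltransferase, had the lowest p in the other direction, with 14.5 to 50.7 CPM in DMSO and 13.3 to 23.6 in TBT for the first (-0.85, edgeR FDR 0.94). Its log2 difference was -0.33 without DMSO library 3. In F3 the same ranks were held by windows at chr4:4428501-4428600 on an MLT1A copy (0.69, edgeR FDR 0.94) and chr13:48645801-48645900 on an MLT1A1 copy (-0.60, edgeR FDR 0.92). TBT and DMSO overlapped in the Lclat1 and F3 windows.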

How the data were processed

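RNA was reverse-transcribed with an oligo(dT) primer and sequenced as paired reads. Per the labels and methods, the authors trimmed reads with Trim Galore, aligned them with STAR to mm10 (GRCm38), and counted LTR repeats of RepeatMasker with a modified ERVmap. Versions and strand use are not given in the sources used here. The deposited signal values are TMM-scaled CPM, computed by the authors; with a tolerance of 0.01, 100% of them came out as whole reads. The deposited MBD tables hold raw counts per window of 100 bp, CpG numbers and the authors' comparison columns, which were not used. Loci with a mean of 5 read values or more were tested with limma 3.58.1 in R 4.3.3, and P5 against P4 with exposure as a covariate. The fits were made on log2 of the value plus 1 read value, the median over the compared libraries of the smallest value above 0. Fold changes on this scale understate the change of low loci. MBD windows were tested with edgeR 4.0.16 (quasi-likelihood, TMM, filterByExpr), and an overlap of 1 bp counted as MLT1. Location came from GENCODE vM21 and sequences from the GRCm38 genome given with the data; the repeat starts count from 0 and are printed from 1. On simulated data with 200 loci changed 4-fold, the fits recovered 84%, 72% and 85% for TBT in F1 P4, P5 and P6, and 58%, 49.5% and 78.5% in F3. They recovered 96.5% and 80.5% for P5 against P4 in F1 and F3, and 88.5% and 99% of MBD windows. The simulation drew loci independently with a single fixed spread, set smaller for MBD windows. Recovery at loci with a larger spread, such as the Psmb2 copy in F3 P5 TBT (406 ± 369 units), was not simulated. Named loci were, per comparison, up to 5 in each direction with the largest change among those past FDR 0.05 whose groups did not overlap, or, for P5 against P4, that moved the same way in every numbered pair. Where a direction had none, the 2 of lowest p were named as values only, ties going to the locus listed earlier. Per population the 5 copies with the highest value per kb were named, and the 3 highest outside genes. For MBD windows up to 3 in each direction were chosen by lowest p, and those of rank 1 are given. The members and gene lists were chosen with earlier results of these data known. Alternatives covered pseudocounts, filters, scalings, tests, locations, each library left out, and those added later. Pairing by library number was checked by the correlation of deviations from group means. The 11 F1 pairs had r of 0.0018 to 0.278 and the 9 F3 pairs -0.088 to 0.460. These values cannot show whether P4 and P5 libraries of 1 number share a fetus. The main fits left the pairing out, and a block on the number was an alternative. Python 3.11.15 with pandas 2.3.3 was used, and DESeq2 1.42.0 as an alternative.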

Additional observations from a re-analysis of the deposited data

Results flagged for a closer look

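Of 156 group and measure combinations of 4 to 10 libraries, 29 had 1 library with a gap beyond Dixon's 95% critical value. For normally distributed values chance gives this in about 1 of 20. Where all other libraries of a group held no read, 1 library with any read is flagged whatever its value. This was so for several of the flagged copies with low values, so the count of 29 cannot be compared with the chance rate. The MLT1 share of the LTR value was 8.79% in F1 P6 DMSO library 1 (others 8.62% to 8.66%) and 8.28% in F1 P6 TBT library 11 (others 8.54% to 8.74%). The share of MLT1 value outside genes was 19.3% in F3 P5 TBT library 5, the one with 246520 reads (others 3.93% to 8.06%).

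The shallow libraries of F3 held the highest values of several copies, in units. F3 P5 TBT library 5 had 72.7 at the MLT1B copy in Gm28078, 65.1 at the MLT1J2 copy at chr7:127127493-127127717 and 95.7 at the MLT1I copy in Gphn. F3 P5 DMSO library 2 had 95.6 at that Gphn copy and 81.9 at the MLT1A0 copy at chr12:5678821-5679060. F3 P4 TBT library 9 had 51.0 at the MLT1K copy in Tug1 (others 8.62 to 14.8). Whether depth gave these values was not tested.

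Single libraries also stood apart at copies with low values in F3. In F3 P4 DMSO, library 4 had 2.57 units at the MLT1A1 copy at chr15:88889731-88890107, library 1 had 8.76 at the MLT1B copy in Sult2a1 (others 2.34 to 2.93) and 3.96 at the Gphn copy, and library 2 had 0.978 at the MLT1J-int copy in Cnbd1 and 1.47 at the MLT1C copy in Zfp719. In F3 P4 TBT, library 6 had 0.332 at the Sult2a1 copy, 1.49 at the chr12 MLT1A0 copy and 1.16 at the MLT1F-int copy in Kidins220, and library 8 had 0.4658 at the Cnbd1 copy. In F3 P5, DMSO library 4 had 1.62 at the Gm28078 copy, DMSO library 3 had 0.968 at the MLT1H1 copy at chr17:45855747-45855856, and TBT library 7 had 0.963 at the MLT1D copy at chrX:161553013-161553330.

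In F1 P4, DMSO library 43-5 had 2.13 units at the MLT1F1 copy in Gm7972, 44-1 had 10.4 at the MLT1C copy on chr19 (others 5.67 to 6.40), and 48-4 had 0.229 at the MLT1H2 copy near Fbxw11. Among TBT libraries of F1 P4, 47-4 had 2.60 at that MLT1H2 copy, 45-5 had 0.597 at the Sugct copy, and 45-3 had 0.213 at the Gm7972 copy and 0.853 at the Col11a1 copy. The MBD window at chr13:48645801-48645900 had 32.7 CPM in F3 TBT library 8 (others 6.46 to 15.7).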

How the results depend on the processing

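Among answers to a comparison, a count of calls was taken as kept if its ratio to the main count stayed within a fixed bound. A share was taken as kept within 1 SD of the main value. By this rule 222 values under another setting and 554 with 1 library left out were kept. Under another setting 27 counts were larger, 17 were smaller and 10 shares moved. With 1 library left out 8 counts were larger and 12 smaller. The rule did not follow single members across the threshold. The changes below were not traced to a cause. For TBT against DMSO, the likelihood ratio test of edgeR gave 8 lower MLT1 loci in F1 P4, 3 higher and 3 lower in F1 P5, 28 higher and 181 lower in F3 P5, and 18 higher and 4 lower in F3 P6, where all but F3 P6 had 0 by limma. Over all LTR loci that test called 11 higher and 75 lower, 308 and 80, 680 and 2646, and 198 and 156 in the same order. Without a filter 18 higher and 3 lower were called in F1 P5, 1 higher in F1 P6 and 7 higher in F3 P6, beside 922, 76, 17 and 59 LTR loci. In F3 P6 a pseudocount of 0.25 gave 0 higher, one of 4 gave 5, median-ratio scaling 0, the quasi-likelihood test 5, and subtraction of the lowest locus of a stretch 0 higher and 0 lower, beside 13, 31, 15, 33 and 0 LTR loci higher, and the Akr1e1 copy was not tested there because its stretch holds 1 LTR locus. With 1 library left out the higher calls were 0 to 1 in F1 P5 (1 without DMSO 43-4, 43-5 or 48-4, beside 33, 33 and 81 LTR loci) and 0 to 14 in F3 P6 (14 of 9765 without DMSO 2, beside 123 of 104835 LTR loci).

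For F1 P5 against P4, higher calls were 436 at a mean of 20 read values or more, 501 with DMSO libraries only and 21 after subtraction. Lower calls were 1271 without a filter, 1012 at the same total, 1120 by median-ratio scaling, 469 with DMSO only and 3 after subtraction. The numbers tested were 9149 MLT1 and 101401 LTR loci, and 3692 and 42842 at 20 read values or more. They were 43702 and 515304 without a filter, and 66 and 1364 after subtraction. Over all LTR loci the higher calls were 5181, 6791 and 676, and the lower calls 14765, 11628, 12692, 6058 and 38, in the same order. With 1 library left out the MLT1 calls were 1358 to 1468 and 1847 to 2085, beside 16953 to 18160 and 20494 to 22713 LTR loci. For F3, higher calls were 9 without a filter, 7 at 20 read values or more, 54 by median-ratio scaling, 198 by quasi-likelihood and 322 by likelihood ratio. They were 180 without libraries under 2000000 reads, 70 after subtraction, and 0 with DMSO only. Lower calls were 1 at the same total, 5 by quasi-likelihood, 13 by likelihood ratio and 67 without the shallow libraries. Here 7973 MLT1 and 98076 LTR loci were tested, and 37657 and 456190 without a filter. At 20 read values or more 2750 and 34835 were tested, and 297 and 5839 after subtraction. Over all LTR loci the higher calls were 375, 202, 1612, 4881, 6967, 3489, 1722 and 0, and the lower calls 73, 71, 180 and 821. With 1 library left out the MLT1 calls were 10 to 159 and 0 to 3, beside 404 to 3262 and 0 to 134 LTR loci. With the library number as a replicate block, 1560 were higher and 2406 lower in F1, and 65 and 0 in F3, beside 19218 and 26091, and 1804 and 86, of all LTR loci. Of the pairs, 4 of 11 F1 libraries and 2 of 9 F3 libraries correlated best with their own number. The block left 9 species higher and 33 lower in F1 and none in F3, beside 174 and 314, and 31 and 9, of all species.

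Species totals of F1 P5 against P4 gave 19 higher and 10 lower at the same total, 43 and 0 outside genes (320 and 124, and 553 and 1, of all species), and 6 to 9 and 30 to 34 with 1 library left out, beside 149 to 166 and 268 to 301 of all species. In F3 they gave 29 higher outside genes and 1 lower at the same total, beside 359 and 27 of all species. MLT1A0, MLT1B and MLT1A1 turned to 0.024, 0.036 and 0.034 at the same total and to 1.28, 1.05 and 1.14 outside genes in F1. In F3 MLT1A0 turned to 0.052 at the same total and 1.55 outside genes, and ranged from -0.42 to 0.019 (without P5 TBT 5) with 1 library left out, and MLT1B and MLT1A1 to 1.16 and 1.30 outside genes. With only protein-coding genes setting the location, the MLT1 share outside genes was 2.46% and 2.21% in F1 P4 DMSO and TBT, 4.51% and 5.13% in F1 P5, 1.07% in F1 P6 DMSO, 3.72% in F3 P4 DMSO, and 1.02% and 1.03% in F3 P6. Outside exons the MLT1 share of LTR value was 7.55% in F1 P5 DMSO and 8.79% in F3 P6 DMSO. Reads per locus limit what could be seen, since most copies had too few to be tested.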

Other observations

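Among LTR loci outside genes, MLT1 took a smaller share of the value than among all LTR loci. In DMSO libraries it was 5.26% ± 0.139 (SD, n = 5) in F1 P4, 4.89% ± 0.133 (n = 4) in F1 P5 and 2.66% ± 0.302 (n = 5) in F1 P6, where the shares over all locations were 7.42%, 7.50% and 8.67%. In F3 DMSO libraries it was 4.21% ± 0.292, 4.19% ± 0.386 and 2.29% ± 0.204 in P4, P5 and P6 (n = 4 each). Among DMSO groups P6 thus had the highest MLT1 share over all loci and the lowest outside genes in both generations. In TBT libraries the shares outside genes were 5.10% ± 0.377, 4.73% ± 0.355 and 3.60% ± 1.25 in F1 P4, P5 and P6 (n = 7 each), where P6 libraries 7 and 8 had 5.27% and 5.23%, above every F1 P5 library (highest 5.07%), and 4.44% ± 0.991, 4.39% ± 0.629 and 2.39% ± 0.143 in F3 (n = 5 each). The P6 and germline tables were scaled separately, and the difference between them was not tested.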
